A study of Mus musculus with 12 samples.

Results

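Connexins are the proteins of gap junctions, and 5 connexin genes, Gja1, Gja4, Gja5, Gjc1 and Gjb2, were followed in lymphatic and blood endothelial cells sorted from mouse ear skin. They were taken by name from the platform's annotation, each with 1 transcript cluster row, among 30743 genes with a row of their own. The arrays came from C57BL6 mice aged 5 weeks (also labelled adult) that carried the Prox1-GFP transgene, in which a green fluorescent protein marks cells using the lymphatic gene Prox1. All groups share this reporter and a prior enrichment on PECAM1 beads. Lymphatic endothelial cells (LEC) were split by surface LYVE1 into a LYVE1-low or -negative fraction of collecting vessels (col LEC), a LYVE1-intermediate fraction of pre-collectors (pre-col LEC) and a LYVE1-high fraction of capillaries (cap LEC), and blood endothelial cells (BEC) carried PECAM1 without PDPN, Prox1-GFP or LYVE1. Each group had 3 arrays labelled biological replicates. The labels do not say whether a replicate is 1 mouse or a pool, so p-values measure the spread between these samples only.

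Connexin proteins assemble into rings in the cell membrane, and rings of neighbouring cells dock to form channels that pass ions and small molecules. In mouse endothelium, Gja4 (Cx37) and Gja5 (Cx40) are best known from arteries, where they carry signals along the vessel wall. Gja1 (Cx43) and Gja4 are needed for the valves of mouse lymphatic vessels, and Gjc1 (Cx45) is known from developing vessels and smooth muscle. Gjb2 (Cx26) is a connexin of skin epithelium and the inner ear.

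The upstream sequences of Gja4 and Gja5 are shown because these 2 members differed between LEC and BEC, in opposite directions. Each is the RefSeq sequence (GRCm38.p6) of the 250 bases before the annotated start, at chr4:127314040-127314289 on the minus strand for Gja4 and at chr3:97032152-97032401 on the plus strand for Gja5. Capitals mark matches on either strand to CACCC, a core of KLF factor sites, or GGGCGG, the GC box.
Gja4: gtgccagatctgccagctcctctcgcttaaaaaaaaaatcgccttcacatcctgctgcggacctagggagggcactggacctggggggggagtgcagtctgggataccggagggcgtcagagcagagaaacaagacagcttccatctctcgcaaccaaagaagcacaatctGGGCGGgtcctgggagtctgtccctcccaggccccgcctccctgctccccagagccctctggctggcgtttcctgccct
Gja5: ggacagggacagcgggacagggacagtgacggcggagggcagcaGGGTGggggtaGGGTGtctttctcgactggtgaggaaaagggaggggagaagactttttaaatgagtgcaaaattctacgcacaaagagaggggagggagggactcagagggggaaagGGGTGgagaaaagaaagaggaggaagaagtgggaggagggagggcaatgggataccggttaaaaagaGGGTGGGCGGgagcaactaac
The Gja4 window held 1 GC box and no CACCC match. The Gja5 window held 4 CACCC matches, all as GGGTG on the strand shown, and 1 GC box that overlaps the last of them. CACCC occurred in 52.0% and GGGCGG in 32.7% of 32851 mouse promoter windows of this length. Neither sequence matched the core AACAAT of SOX factor sites, which 9.4% of those windows held. The FOX factor core TAAACA, held by 12% of windows, and the GATA factor core AGATAA, held by 10.0%, were not matched either. Sequences were at hand for 4 of the 5 members.

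The array values are log2 RMA values, a normalized probe summary, and array medians over all rows lay between 6.06 and 6.17. With 3 arrays a group, their number limits how precise a difference can be. The mean of 6 LEC markers (Prox1, Lyve1, Pdpn, Flt4, Reln and Mmrn1) was 11.86 to 12.09 in col LEC, 12.38 to 12.55 in pre-col LEC, 12.63 to 12.68 in cap LEC and 7.11 to 8.24 in BEC. Prox1, Lyve1 and Pdpn are behind the sort, so their differences, and their part in these means, are no finding. Lyve1 itself was at -2.64 in col LEC minus cap LEC. Flt4, Reln and Mmrn1, which the sort did not use, were at 2.46, 4.96 and 5.29 in col LEC minus BEC. On several arrays, markers of other cells were higher than on the rest of their group. Of these arrays 3, pre-col LEC replicate 1 and BEC replicates 1 and 3, were left out of a later fit. On pre-col LEC replicate 1, 8 of 12 mural cell markers and 8 of 9 fibroblast markers were at their highest of the 9 LEC arrays. Col LEC replicate 1, which that fit kept, had 8 of 9 fibroblast markers at their highest of the 3 col LEC arrays. The same held there for 10 of 12 keratinocyte, 6 of 7 macrophage, 3 of 3 Schwann cell and 7 of 12 mural markers. It also held for 6 of 11 other connexins and 2 of 3 pannexins, and the array median was the highest in col LEC (6.14). Dcn was at 9.54 there against 6.05 and 6.65 in col LEC replicates 2 and 3. On BEC replicate 1, 5 of the 6 LEC markers were at their highest of the 3 BEC arrays, with Mmrn1 at 9.84 against 6.55 and 6.52 on the other BEC arrays. On BEC replicate 3, 11 of 12 keratinocyte markers were at their highest of the BEC arrays, as were 7 of 7 macrophage markers, 3 of 3 Schwann cell markers, 3 of 3 pannexins and 9 of 11 other connexins. The median of that array was the highest of the 12 (6.17). The share of all genes at their highest on a given array was not counted, so these counts are a description. Whether they reflect other cells was not tested. All 3 BEC arrays also carried genes of mural cells, the contractile cells of the vessel wall, and the mean over the 12 markers was 6.85 to 6.93 in col LEC, 7.04 to 8.02 in pre-col LEC, 6.73 to 7.29 in cap LEC and 8.92 to 9.16 in BEC. The means of macrophage markers (7 genes, 6.15 to 6.51) and Schwann cell markers (3 genes, 5.83 to 6.07) stayed near the array medians on all 12 arrays. Single macrophage genes did not, with Cd68 at 7.60 to 9.31 over the arrays. Lyz2 was at 7.10 and 6.77 on pre-col LEC replicates 1 and 3, at 7.27 on cap LEC replicate 1 and at 5.54 to 6.08 elsewhere. The mean of 6 pan-endothelial markers was 11.42 to 11.85. In these bulk samples, fewer cells of a type and less RNA per cell cannot be told apart.

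Of the 4 members that passed the filter on dim genes, 2 differed between every LEC group and BEC, and none passed the test between LEC groups. Gja4 was higher in LEC and Gja5 was lower in LEC, while Gja1 and Gjc1 passed no test. By limma's test with Benjamini-Hochberg adjustment over 19675 genes, 2 of 4 members were called at adjusted p under 0.05 in col LEC against BEC, where 16.2% of all genes tested were called. The count was 2 of 4 for pre-col LEC against BEC (15.5% of all genes) and 2 of 4 for cap LEC against BEC (20.7%). Between LEC groups, limma called 0 of 4 in col LEC against pre-col LEC (0.3% of all genes), in col LEC against cap LEC (1.64%) and in pre-col LEC against cap LEC (0%, with 1257 genes at an unadjusted p under 0.05). At an unadjusted p under 0.05 these counts were 0, 0 and 1 members, the last being Gja5.

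**Figure D1:**
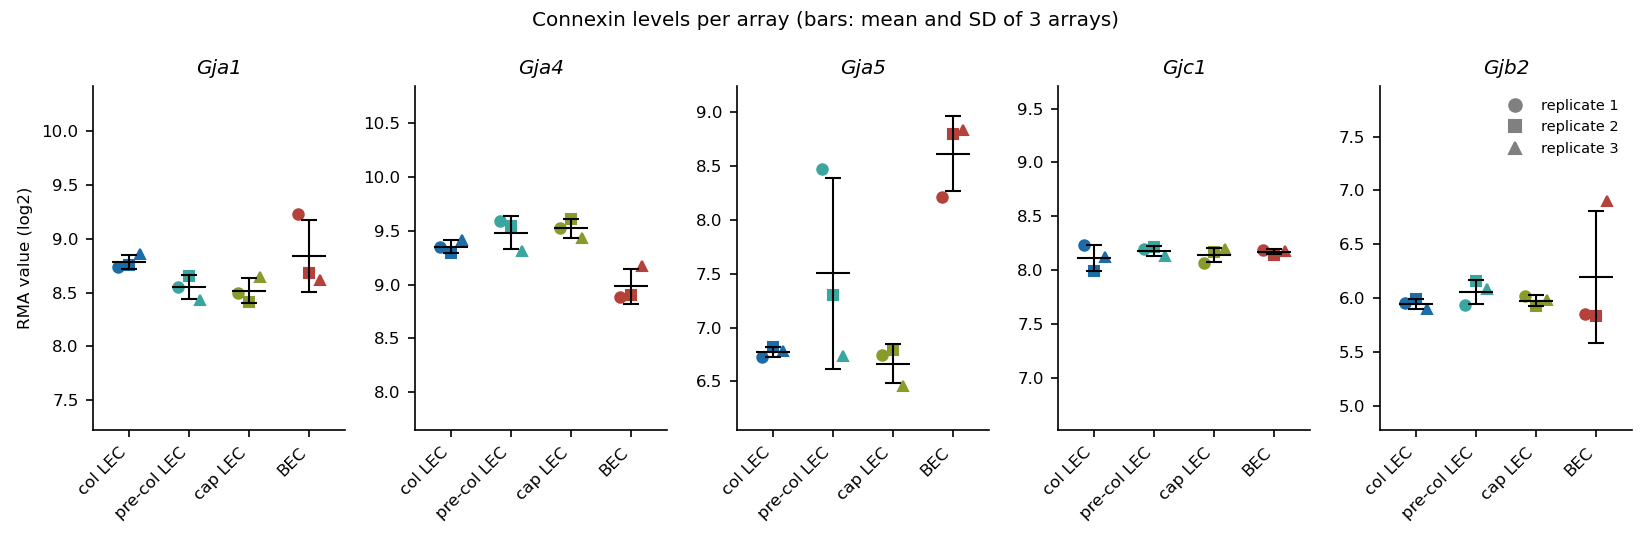
RMA value (log2, vertical axis) of each connexin on each of the 12 arrays, with horizontal marks and bars for the mean and SD of 3 arrays; every panel spans the same number of log2 units, and levels are to be compared within a panel only. Gja4 lies lower in BEC than in the LEC groups, Gja5 lies higher in BEC apart from pre-col LEC replicate 1 at 8.48, and Gjb2 stands out on BEC replicate 3 at 6.90.

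Gja4, which encodes Cx37, was higher in all 3 lymphatic groups than in BEC. Its RMA values in replicates 1 to 3 were 9.35, 9.29 and 9.41 in col LEC, 9.59, 9.55 and 9.31 in pre-col LEC, 9.53, 9.61 and 9.43 in cap LEC and 8.88, 8.90 and 9.17 in BEC. Every LEC array lay above every BEC array, and the LEC groups overlapped each other. The log2 fold change against BEC was 0.37 ± 0.10 in col LEC (SE, n = 3 arrays per group, limma adjusted p = 0.0289), 0.50 ± 0.10 in pre-col LEC (adjusted p = 0.00507) and 0.54 ± 0.10 in cap LEC (adjusted p = 0.00262). These are ratios of 1.29, 1.41 and 1.45, but their BEC side was near background. On BEC replicates 1 and 2 Gja4 lay under the 95th percentile of the platform's negative control rows (9.34 and 8.92). The calls for pre-col LEC and cap LEC held without each of the 12 arrays in turn. That for col LEC ended without col LEC replicate 1, 2 or 3 and without BEC replicate 1 or 2, with log2 fold changes of 0.37, 0.40, 0.34, 0.32 and 0.33 and adjusted p = 0.0729, 0.053, 0.106, 0.0874 and 0.0866 in that order. It also ended after cyclic loess between arrays (0.27, adjusted p = 0.147), with only these groups fitted (adjusted p = 0.0663) and with the replicate number as a block (0.0521).

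Gja4 averaged 9.35 ± 0.06 in col LEC, 9.48 ± 0.15 in pre-col LEC, 9.52 ± 0.09 in cap LEC and 8.98 ± 0.16 in BEC (SD, n = 3 each). Neighbouring LEC groups in that order did not differ beyond their spread. Col LEC minus cap LEC was -0.17 with a 95% interval of -0.40 to 0.06. On 8 of the 9 LEC arrays, but only on BEC replicate 3 among the BEC arrays, Gja4 lay above the 95th percentile of the platform's 5222 negative control rows. That percentile was 8.92 to 9.34 across arrays. The exception among LEC arrays was pre-col LEC replicate 3, at 9.31 against 9.33.

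Gja5, which encodes the arterial connexin Cx40, had its highest group mean in BEC. Its RMA values in replicates 1 to 3 were 6.73, 6.82 and 6.78 in col LEC, 8.48, 7.30 and 6.74 in pre-col LEC, 6.75, 6.79 and 6.46 in cap LEC and 8.22, 8.80 and 8.84 in BEC. Col LEC and cap LEC lay apart from BEC, while pre-col LEC replicate 1 exceeded BEC replicate 1. Gja5 was lower than in BEC by a log2 fold change of -1.84 ± 0.33 in col LEC (SE, n = 3 per group, limma adjusted p = 0.00205), -1.11 ± 0.33 in pre-col LEC (adjusted p = 0.043) and -1.95 ± 0.33 in cap LEC (adjusted p = 0.00117). No ratio is given, because Gja5 stayed under the 95th percentile of the negative control rows on all 12 arrays. It lay above 66.7 to 68.5% of those rows in col LEC, 64.1 to 90.2% in pre-col LEC, 60.7 to 66.2% in cap LEC and 86.3 to 94.5% in BEC. The call in pre-col LEC ended in 10 of the 12 fits that left out 1 array, the weakest being a log2 fold change of -0.73 (adjusted p = 0.154) in the fit lacking pre-col LEC replicate 3. It also ended without the filter on dim genes (adjusted p = 0.0621), under cyclic loess (0.0554), with only these groups fitted (0.144) and with the replicate block (0.0536). It held when pre-col LEC replicate 1 was left out (-1.6, adjusted p = 0.000216), and likewise for BEC replicate 1. The calls in col LEC and cap LEC held in all 12 such fits. Another fit, added after seeing the data, left out pre-col LEC replicate 1 and BEC replicates 1 and 3 together. Gja5 was then at -2.02, -1.78 and -2.13 in col, pre-col and cap LEC minus BEC, and Gja4 at 0.45, 0.53 and 0.62. That fit keeps 1 BEC array, so its BEC side has no replicates. It drops the highest LEC value of Gja5 (8.48) and the lowest BEC value (8.22). The larger difference in pre-col LEC thus follows from the choice of arrays.

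Within the lymphatic groups, Gja5 varied most in pre-col LEC. Its means were 6.78 ± 0.05 in col LEC, 7.51 ± 0.89 in pre-col LEC, 6.67 ± 0.18 in cap LEC and 8.62 ± 0.35 in BEC (SD, n = 3 each), so the order ran cap LEC, col LEC, pre-col LEC, BEC, and neither of the first 2 steps passed the test. The difference of pre-col LEC over cap LEC was 0.84 (95% interval 0.11 to 1.57, limma adjusted p = 0.775). Leaving out pre-col LEC replicate 1 made it 0.35. Col LEC minus pre-col LEC was -0.73 (-1.46 to 0.00, adjusted p = 0.856), or -0.24 lacking that array.

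The order of Gja5 over the 3 pre-col LEC arrays, with replicate 1 highest and replicate 3 lowest, was shared by 8 of 12 mural markers. It was shared by 3 of 8 arterial, 2 of 6 BEC, 2 of 9 fibroblast and 3 of 12 keratinocyte markers. Of other connexins 3 of 11 had it, as did 3 of 20 listed genes of valves and arteries. It was found for 0 of 6 LEC, 0 of 6 pan-endothelial, 0 of 7 macrophage and 0 of 3 Schwann cell markers. The same held for 0 of 16 connexin partners and 0 of 3 pannexins. The share over all genes was not counted, so these counts are a description. Gkn3, a gene of arterial endothelium, was at 6.47, 5.27 and 5.14 in pre-col LEC replicates 1 to 3, at 4.85 to 5.26 on the other LEC arrays and at 7.12 to 8.14 in BEC. Rgs5, a pericyte gene, was at 10.21, 8.91 and 7.93 on the same pre-col LEC arrays. The smooth muscle actin gene Acta2 was at 10.21, 8.0 and 6.84 there. The mean over the 12 mural markers was 8.02, 7.24 and 7.04 there, and over the 8 arterial markers 8.95, 8.68 and 8.53. Of the arterial genes outside that order, Mgp was at 7.64, 6.45 and 6.76 and Fbln5 at 11.57, 12.01 and 11.92. Other arrays did not pair the same way. On cap LEC replicate 1 the mural mean was 7.29 and Gja5 was at 6.75. In BEC replicates 1 to 3 the mural mean was 9.03, 9.16 and 8.92, and Gja5 was at 8.22, 8.80 and 8.84. The part of other cells in the pre-col LEC values of Gja5 was not tested.

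**Figure D2:**
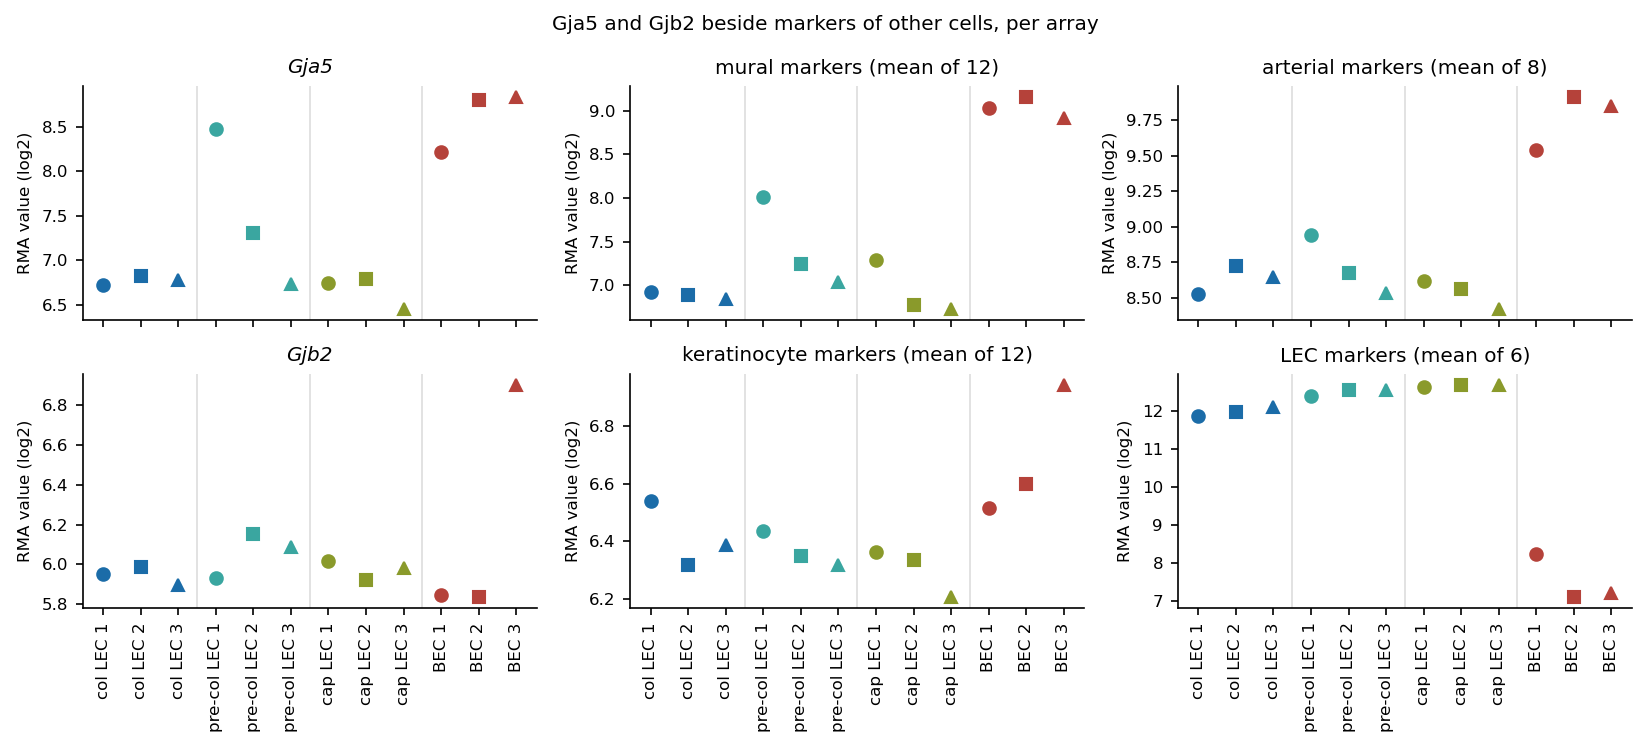
RMA values (log2, vertical axes) of Gja5 and Gjb2 and mean values of marker lists on each of the 12 arrays (horizontal axis, replicates 1 to 3 of each group). Pre-col LEC replicate 1 is high for Gja5 (8.48) and for the mural mean (8.02), and BEC replicate 3 is high for Gjb2 (6.90) and for the keratinocyte mean (6.94). Cap LEC replicate 1 has the highest mural mean of its group (7.29), with Gja5 at 6.75.

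Arterial and mural markers were also called against BEC, the arterial ones in both directions. Of 8 arterial markers, 4 were lower in col LEC (7.93% of all genes tested), 5 in pre-col LEC (8.15%) and 4 in cap LEC (9.55%). Efnb2, Bmx and Fbln5 were the 3 called higher in each (8.31%, 7.38% and 11.2% of all genes). Gkn3 was at -2.54 ± 0.33, -2.13 ± 0.33 and -2.71 ± 0.33 in col, pre-col and cap LEC minus BEC, and Mgp at -3.77 ± 0.26, -3.47 ± 0.26 and -3.95 ± 0.26. Of 12 mural markers, 11, 10 and 11 were lower in col, pre-col and cap LEC, beside those same shares of all genes, with none higher. Rgs5 was at -4.11 ± 0.61, -2.43 ± 0.61 and -3.96 ± 0.61, and the pericyte receptor gene Pdgfrb at -3.58, -2.76 and -3.78. The mean of 6 BEC markers was 8.87 to 9.12 in col LEC, 8.83 to 9.18 in pre-col LEC, 8.69 to 8.79 in cap LEC and 11.18 to 11.34 in BEC. The part of mural RNA in the BEC values of Gja5 was not tested.

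Gja1, which encodes Cx43, was measured at closely spaced levels. Its RMA values in replicates 1 to 3 were 8.73, 8.76 and 8.86 in col LEC, 8.55, 8.66 and 8.43 in pre-col LEC, 8.49, 8.41 and 8.65 in cap LEC and 9.23, 8.68 and 8.61 in BEC. The 3 col LEC arrays lay above the 6 arrays of pre-col LEC and cap LEC, while BEC replicate 1 lay above all LEC arrays and BEC replicates 2 and 3 lay below all col LEC arrays. Col LEC minus cap LEC was 0.27 ± 0.14 (SE, 95% interval -0.04 to 0.58, limma adjusted p = 0.562) and col LEC minus pre-col LEC was 0.24 ± 0.14 (-0.07 to 0.55, adjusted p = 1). Cap LEC minus BEC was -0.32 ± 0.14 (-0.63 to -0.01, adjusted p = 0.129), and -0.13 without BEC replicate 1. The part of other cells in the Gja1 value of that array was not tested. Col LEC minus BEC was -0.06 (-0.37 to 0.25), and 0.13 without that array. The means were 8.78 ± 0.07 in col LEC, 8.55 ± 0.11 in pre-col LEC, 8.52 ± 0.12 in cap LEC and 8.84 ± 0.33 in BEC (SD, n = 3 each), and no neighbours in their order passed the test.

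Gjc1, which encodes Cx45, was the flattest member. Its 12 values lay between 7.99 and 8.23, with group means of 8.11 ± 0.12 in col LEC, 8.18 ± 0.05 in pre-col LEC, 8.14 ± 0.07 in cap LEC and 8.17 ± 0.02 in BEC (SD, n = 3 each). Its 6 log2 differences between groups lay between -0.07 and 0.04, and their 95% intervals between -0.24 and 0.21. Gjc1 lay above 84.8 to 89.7% of the negative control rows, and Gja1 above 88.2 to 94.4%. Neither reached their 95th percentile on any array, and whether weak signal shrank their differences was not tested.

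Gjb2, the epithelial connexin Cx26, did not pass the filter, which required a value above the array median on at least 3 arrays. Its RMA values in replicates 1 to 3 were 5.95, 5.99 and 5.90 in col LEC, 5.93, 6.15 and 6.09 in pre-col LEC, 6.02, 5.92 and 5.98 in cap LEC and 5.85, 5.84 and 6.90 in BEC. BEC replicate 3 stood alone, and the other 11 arrays lay between 5.84 and 6.15, where 49.2 to 55.2% of the negative control rows lay below it. Without the filter on dim genes, no contrast of Gjb2 was called by limma, with differences from BEC of -0.25 in col LEC, -0.14 in pre-col LEC and -0.22 in cap LEC (adjusted p = 0.624, 0.81 and 0.557). The keratinocyte mean over 12 markers was 6.21 to 6.54 over the LEC arrays and 6.52, 6.60 and 6.94 in BEC replicates 1 to 3. Of its genes, the desmosomal Dsc3 was at 6.05 on BEC replicate 3 and at 4.75 to 5.06 on the other arrays. The basal keratin Krt5 was at 7.52 there and at 6.52 to 7.07 elsewhere. Other dim lists were high on that array too, and the part of keratinocyte RNA in the Gjb2 value was not tested.

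**Figure D3:**
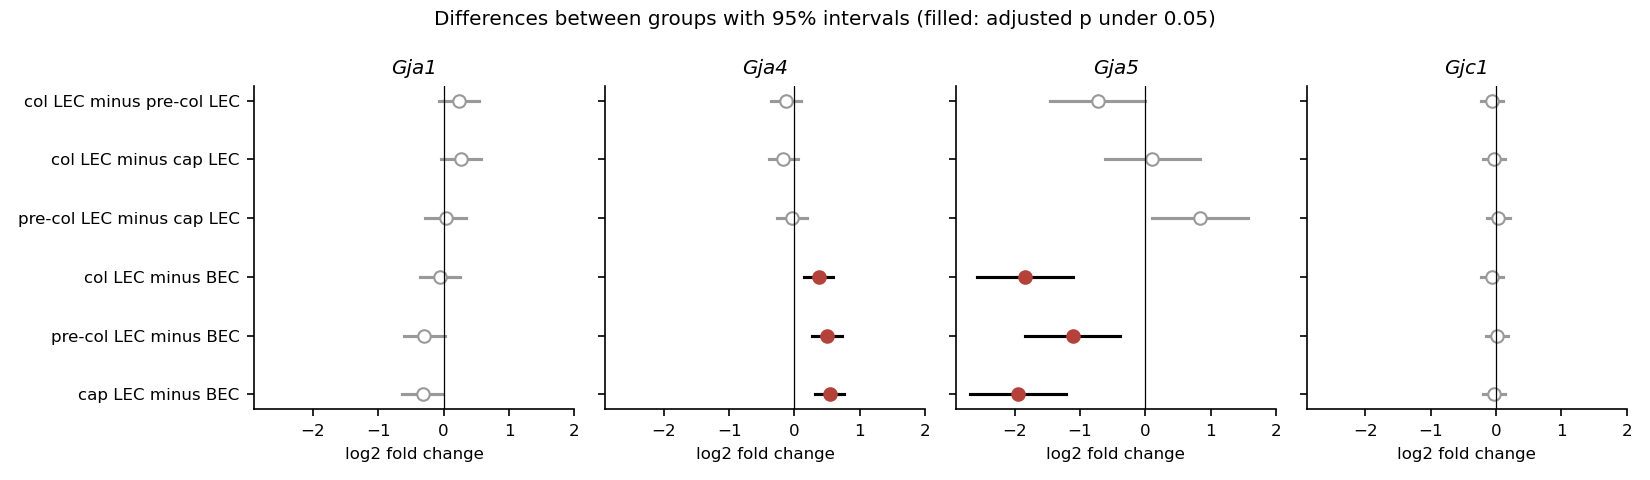
Log2 fold changes (horizontal axis) of the 4 tested connexins in the 6 group comparisons (vertical axis), with 95% intervals from limma as lines and filled points where the adjusted p was under 0.05. The Gja4 points against BEC lie between 0.37 and 0.54, those of Gja5 between -1.95 and -1.11, and all points of Gja1 and Gjc1 are open.

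Of 15 other connexin genes listed, 11 had a row and 7 passed the filter, and 0 of 7 were called by limma in any of the 6 comparisons. Over all genes, 16.2%, 15.5% and 20.7% were called in col, pre-col and cap LEC against BEC and at most 1.64% between LEC groups, so 0 of 7 is near that share. At an unadjusted p under 0.05 stood Gjd3 in pre-col LEC minus cap LEC (0.23 ± 0.10, adjusted p = 0.775) and Gjb5 in cap LEC minus BEC (-0.29 ± 0.12, adjusted p = 0.106). Their median log2 difference in cap LEC minus BEC was -0.13, against -0.03 over all genes tested. Pannexins form membrane channels of a similar build but do not belong to the family. Panx1 was at 0.32 ± 0.12 in col LEC minus cap LEC (adjusted p = 0.286) and Panx2 at 0.06 ± 0.07 (adjusted p = 0.8), and limma called 0 of the 2 tested in any comparison.

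Proteins that bind connexins or bring them to junctions were listed as 18 genes, of which 16 were tested. In col LEC against BEC, 3 were higher (8.31% of all genes tested) and 4 lower (7.93%). In pre-col LEC, 4 were higher (7.38%) and 5 lower (8.15%), and in cap LEC 5 were higher (11.2%) and 5 lower (9.55%). Dlg1, a scaffold protein of cell junctions, was higher by 1.36 ± 0.15, 1.88 ± 0.15 and 2.08 ± 0.15 in col, pre-col and cap LEC minus BEC, and it was lower in col LEC than in cap LEC (-0.72 ± 0.15, adjusted p = 0.0378), where 0.986% of all genes were called lower. Ccn3, a secreted matrix protein reported to bind Cx43, was also lower in col LEC than in cap LEC (-0.86 ± 0.16, adjusted p = 0.023). Prkca, a kinase, was higher in each LEC group than in BEC (0.66 ± 0.14, 0.68 ± 0.14 and 0.48 ± 0.14 in the same order). Dbn1, an actin-binding protein that also binds Cx43, was higher as well (0.54 ± 0.08, 0.55 ± 0.08 and 0.64 ± 0.08). Tjp1, the junction scaffold ZO-1 that binds Cx43, was lower (-0.50 ± 0.08, -0.54 ± 0.08 and -0.64 ± 0.08). Dbn1 and Tjp1 were named after their values were seen. Cdh2, N-cadherin, was dim, at 5.73 to 6.19 on the LEC arrays and 6.80 to 7.29 in BEC. Those values all lay under the 95th percentile of the negative control rows. It was lower by -1.16 ± 0.14, -1.09 ± 0.14 and -1.15 ± 0.14 in col, pre-col and cap LEC minus BEC, and Akap2, an anchor of protein kinase A, by -1.05 ± 0.10, -1.02 ± 0.10 and -0.96 ± 0.10. The median difference of the 16 genes was 0.03, 0.00 and 0.01 in these contrasts, against 0.00, -0.02 and -0.03 over all genes tested.

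Regulators and other genes of lymphatic valves or arteries were listed as 20 genes, of which 19 were tested. In col LEC against BEC, 7 were higher and 4 lower (8.31% and 7.93% of all genes). In pre-col LEC 7 were higher and 5 lower (7.38% and 8.15%), and in cap LEC 7 were higher and 4 lower (11.2% and 9.55%). Prox1, whose reporter was used in the sort, was at 5.61 ± 0.20, 5.57 ± 0.20 and 5.60 ± 0.20 in col, pre-col and cap LEC minus BEC. It is counted among those higher, where its call is no finding. The valve integrin gene Itga9 was at 1.46 ± 0.11, 1.46 ± 0.11 and 1.57 ± 0.11 in these contrasts. Sox17, a transcription factor of arterial endothelium, was at -2.91 ± 0.13, -2.83 ± 0.13 and -2.91 ± 0.13, and Notch4, a receptor of blood endothelium, at -1.47 ± 0.08, -1.42 ± 0.08 and -1.49 ± 0.08. Foxc2, a valve transcription factor named here after its values were seen, was higher by 1.19 ± 0.14, 0.94 ± 0.14 and 0.83 ± 0.14 than in BEC. Klf2, a factor induced by flow, was at -0.28 ± 0.14, -0.34 ± 0.14 and -0.34 ± 0.14 and passed no test (adjusted p = 0.23, 0.134 and 0.109), and it too was named after its values were seen. The median difference of the 19 genes was 0.22, 0.02 and 0.09. Between LEC groups, Ppp3ca, a catalytic subunit of the phosphatase calcineurin, was the only one of the 19 called. It was higher in col LEC than in cap LEC (0.51 ± 0.09, adjusted p = 0.0106), where 0.651% of all genes were called higher.

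**Figure D4:**
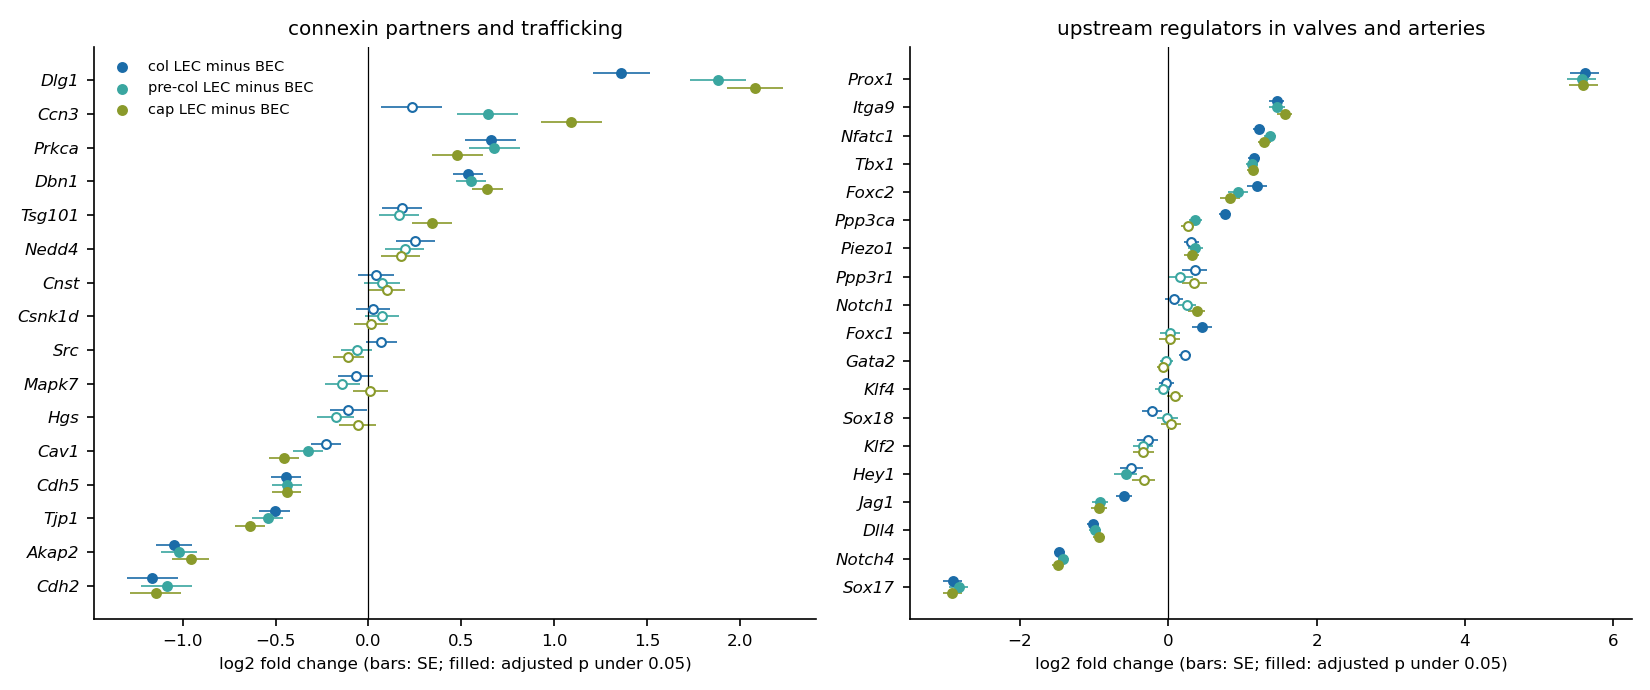
Log2 fold changes (horizontal axes) of connexin partners (left, 16 genes) and of regulators and other genes of valves and arteries (right, 19 genes). They are shown in col, pre-col and cap LEC minus BEC, with SE bars and filled points where limma's adjusted p was under 0.05. Dlg1 and Prox1 stand highest, and Cdh2 and Sox17 lowest, in their panels.

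The genes nearest in pattern to Gja4 and Gja5 were found over the 12 arrays after each gene's mean was subtracted, by the smallest root mean square difference. The arrays are shared by all genes, so this is a description. For Gja4 these were Cst6, a protease inhibitor gene (0.07 log2 units), Samsn1, an adaptor gene (0.08), and Mettl27 (0.09). Their differences in cap LEC minus BEC were 0.57, 0.56 and 0.74, beside 0.54 for Gja4. For Gja5 they were Map3k7cl (0.23), Tmem182 (0.26) and Aoc3, an amine oxidase gene of vessel walls (0.27). Their differences in cap LEC minus BEC were -2.0, -1.88 and -2.01, and in pre-col LEC minus cap LEC 0.63, 0.56 and 0.77, beside -1.95 and 0.84 for Gja5.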

How the data were processed

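Sorted cells from 4 groups of 3 were measured on Affymetrix whole-transcript arrays, after amplification of 500 pg of total RNA per the labels' protocols. The authors deposited log2 values, which the submitters' processing notes give as made by RMA. Its software, version and genome build were not given in the sources used here. RMA can compress differences of weak signals. Of 72688 rows, 31216 named 1 gene in the platform annotation, with symbols updated by Entrez gene ID through RefSeq (GRCm38.p6), and each gene was represented by its brightest row. The 19675 genes above the array median on at least 3 arrays were tested. Group means were fitted on all 12 arrays with limma 3.58.1 in R 4.3.3 (lmFit, eBayes), and p-values were adjusted by Benjamini-Hochberg over the genes tested in each of the 6 comparisons, two-sided. Errors beside fold changes are SE, and beside levels SD. The fit was tested on simulated data. The pairing of replicate numbers was checked by the correlation of deviations from group means. It was -0.09 to 0.21 (median 0.09) between same-numbered arrays of different groups and -0.14 to 0.18 (median -0.03) between differently numbered ones. Same-numbered arrays thus deviated together slightly more, and the check does not exclude a pairing. The labels state none, so the reported fit had no pairs. Alternatives were no filter, cyclic loess, array weights, only the groups compared, the replicate number as a block, the mean of a gene's rows and leaving out arrays. Members and lists were chosen with earlier results of these data known. Named genes of a list are the up to 4 with the largest change among those called between LEC groups, and the up to 4 among those called between every LEC group and BEC, or with none called the 2 with the smallest p, and for each member called the 3 genes nearest in pattern. Acta2, Krt5, Efnb2, Bmx, Fbln5, Dsc3, Dcn, Cd68, Lyz2, Dbn1, Tjp1, Klf2 and Foxc2 fall outside that rule. Plots used matplotlib 3.10.9.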

Additional observations from a re-analysis of the deposited data

How the results depend on the processing

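The number of members called was 0 in every fit for the 3 comparisons between LEC groups and 2 in every fit for cap LEC against BEC. For col LEC against BEC it was 2 in the reported fit and 1, Gja4 losing its call, under cyclic loess, with only the groups compared fitted and with the replicate number as a block. For pre-col LEC against BEC it was 2 and became 1, Gja5 losing its call, under these same settings and without the filter on dim genes. Leaving out 1 array gave 1 to 2 in both. The replicate block changed no other call of a member. Another setting, added after seeing the data, left out pre-col LEC replicate 1 and BEC replicates 1 and 3 together and kept col LEC replicate 1. The single BEC array left is assumed there to vary like the other groups. The cause of these changes was not tested.

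Differences near 0 changed sign. Gja4 in pre-col LEC minus cap LEC was 0.026 under cyclic loess and -0.0945 to 0.0474 with 1 array left out. Gja1 in col LEC minus BEC was 0.0096 with array weights, 0.101 without the 3 arrays and -0.171 to 0.135 with 1 left out, and in pre-col LEC minus cap LEC it was -0.0243 to 0.0946. Gjc1 in pre-col LEC minus BEC was -7e-04 under cyclic loess. With 1 array left out Gjc1 was -0.0854 to 0.0328 in col LEC minus cap LEC, -0.113 to 0.0057 in col LEC minus BEC, -0.0077 to 0.0359 in pre-col LEC minus BEC and -0.0528 to 0.0103 in cap LEC minus BEC.

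Over all genes, calls in col LEC against pre-col LEC numbered 59, 153 with array weights, 5 with only these groups fitted, 25 without the 3 arrays and 24 to 63 with 1 array left out. In col LEC against cap LEC there were 322, 792 with array weights and 180 to 351 with 1 array left out. In pre-col LEC against cap LEC there were 0, 28 with array weights, 13 under cyclic loess, 3 with the replicate block and 0 to 1 with 1 array left out. Without the 3 arrays, calls against BEC fell to 2005 in pre-col LEC, against 3055 with all arrays, and to 2414 in cap LEC, against 4073. Signal over background limits Gjb2 and, in col LEC and cap LEC, Gja5 most, and then Gjc1 and Gja1.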
